A study of Mus musculus with 8 samples.

Results

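Of 24376 dentate gyrus cells that passed the filters, 6565 (26.9%) were myelinating oligodendrocytes (MOLs), and 17811 were other cells. MOLs were chosen by their readout: a cell carried a unique molecular identifier (UMI, 1 counted RNA molecule) of at least 3 of Mog, Mag, Mobp, Cldn11 and Opalin, at most 1 of Gpr17, Bmp4, Neu4 and Enpp6, which mark committed and newly formed oligodendrocytes, and at most 1 of Pdgfra, Lhfpl3, C1ql1, Cx3cr1, P2ry12, Cldn5, Flt1, Slc1a2, Gja1, Stmn2 and Eomes, which mark other cell types. Cells with over 500 genes and under 10% mitochondrial UMIs passed, which left out 1660 of 26036 barcodes. The levels of these genes in MOLs are therefore given as a description, and so is every comparison of MOLs with the other cells.

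The series was made to follow neural stem cells of the hippocampal dentate gyrus with age, and MOLs came along in the same sort. All mice were heterozygous for Ki67-creERT2, which recombines only in cells that express the proliferation gene Ki67, for Nestin-GFP, which marks neural stem cells, and for a tdTomato reporter, on a mixed C57BL/6J and CD1 background. All received tamoxifen for 6 days and were culled on day 8, at 1 month (1 experiment), 2 months (3 experiments) or 6 to 8 months (3 experiments, labelled 6 months). There was no untreated or reporter-free group. Each experiment pooled several mice of both sexes by the study's methods, so p-values measure the spread between such pools. The dentate gyrus was microdissected and dissociated with enzymes, and sorted cells entered a 3′ droplet assay of single-cell RNA. Libraries at 2 months used Version 2 of the 10x chemistry and those at 1 month and 6 to 8 months Version 3, so that age and chemistry cannot be told apart between 2 months and 6 to 8 months.

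Most libraries held GFP+tdTomato+ and GFP+tdTomato- cells together. The first experiment at 2 months was instead split into a GFP+tdTomato- library and a library labelled for GFP+tdTomato+ cells and for cells with neither reporter, and the latter, called the mixed library here, stands apart. Of its cells outside the MOLs, 11.2% were recombined by the study's limits given below and 10.0% carried an eGFP UMI. Its 39 MOLs had an eGFP level of 12.3 CPM (UMIs of the gene over all UMIs of the summed cells, scaled to a fixed total), and 5.13% of them carried an eGFP UMI, against 160 CPM and 46.2% in the other library of that experiment. Libraries were summed within this experiment, and the age results were also computed without the mixed library. The cells shared 51 barcode sequences between libraries, which 103 passing cells and 32 MOLs carried.

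Oligodendrocytes extend their membrane in many layers around axons, and the compacted layers are myelin, which speeds the conduction of impulses. Myelin is rich in cholesterol and galactolipids and in a small set of proteins such as myelin basic protein. Precursors that carry Pdgfra pass through a committed and a newly formed stage before they make myelin, and mature cells persist for long periods, couple to astrocytes through gap junctions and supply axons with metabolites.

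Nearly all MOLs carried the full marker set. All 5 markers were detected in 6096 MOLs (92.9%), 4 in 403 (6.14%) and 3 in 66 (1.01%). The second experiment at 2 months, which had the shallowest MOLs, held 306 of the MOLs with 4 markers and 59 of those with 3. Of the limiting genes, 4236 MOLs carried none, 1067 carried 1 newly formed gene and 1569 carried 1 gene of another type. The ones met most often were Slc1a2, an astrocyte glutamate transporter, in 1080 MOLs (16.5%) and Enpp6 in 905 (13.8%), whereas Cx3cr1 and P2ry12, both of microglia, were found in 7 and 3 MOLs.

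Cells next to the limits were as follows. MOLs with exactly 3 markers had a Mal level of 719 CPM and an Ermn level of 391 CPM, against 38.5 and 32.1 CPM in the 158 cells with 2 markers that otherwise met the rule. Of those 158 cells, 132 came from the second experiment at 2 months. Cells with 3 or more markers but 2 newly formed genes (33 cells) had a Mal level of 3637 CPM, and those with 2 genes of another type (255 cells) one of 4389 CPM. MOLs with all 5 markers had a Mal level of 5479 CPM. In all, 564 of 7129 passing cells with 3 or more markers were left out, 229 through newly formed genes, 496 through genes of another type and 161 through both.

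MOLs were scarce in the youngest library. They made up 14 of 3288 passing cells (0.426%, exact 95% binomial interval 0.233 to 0.713%) at 1 month. At 2 months they were 612 of 4189 (14.6%), 1946 of 4059 (47.9%) and 323 of 1785 (18.1%). At 6 to 8 months they were 1644 of 2519 (65.3%), 863 of 3372 (25.6%) and 1163 of 5164 (22.5%). Intervals here cover counting error only. The 1-month share lay below those of the other 6 experiments, and the ranges at 2 months and at 6 to 8 months overlapped.

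At 2 months the mean share was 26.9% ± 18.3 (SD, n = 3), whereas at 6 to 8 months it was 37.8% ± 23.8 (SD, n = 3), a difference of 10.9 percentage points (exact two-sided permutation test, p = 0.5, where 3 experiments against 3 cannot go below 0.1). Without the first experiment at 6 to 8 months the difference was -2.83 points. The gates used GFP and tdTomato, so these are shares of sorted cells, and the mixed library held 39 MOLs among 1542 cells (2.53%, 95% interval 1.80 to 3.44%) where the other library of its experiment held 573 of 2647 (21.6%). After each cell was thinned to 1500 UMIs the shares were 0.462% at 1 month, 16.8%, 60% and 22.6% at 2 months, and 68.2%, 27.4% and 24.4% at 6 to 8 months. Too shallow for this were 1 MOL at 1 month, 5, 197 and 0 at 2 months, and 4, 0 and 0 at 6 to 8 months.

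**Figure D1:**
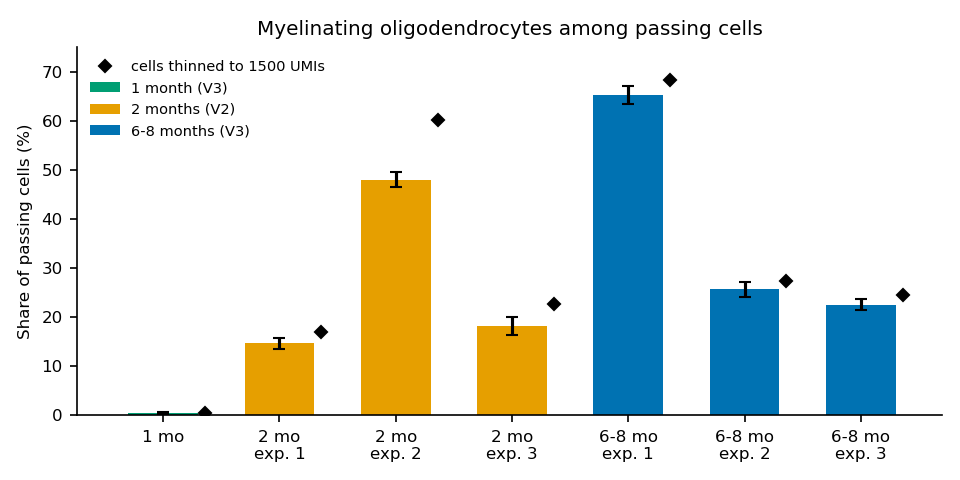
Share of passing cells that are MOLs in each of the 7 experiments (bars, percent of cells, with exact 95% binomial intervals) and after thinning every cell to 1500 UMIs (diamonds). The 1-month bar is 0.426%, and the highest bars are 47.9% at 2 months and 65.3% at 6 to 8 months.

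Depth differed between experiments. The libraries held 26464703 UMIs at 1 month, 4938419 (the mixed library), 9397048, 9637578 and 4861883 at 2 months, and 13739260, 22621305 and 43826338 at 6 to 8 months. The MOLs of an experiment summed to 144473 UMIs at 1 month, 2744107, 4916975 and 935729 at 2 months, and 8804254, 4989121 and 8461288 at 6 to 8 months. The median MOL had 11055.5 UMIs at 1 month, 4394, 2290 and 2801 at 2 months and 4960.5, 5551 and 6976 at 6 to 8 months. At 1500 UMIs a median MOL showed 807 to 878 genes across experiments and the other cells 879 to 1051. The median MOL of an experiment had 4.05 to 5.36% mitochondrial UMIs.

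Genes of the myelin sheath were mostly higher in MOLs than in all other cells, and genes of astrocytes, precursors and neurons mostly lower. Mal, a protein of myelin membranes, stood at 8562 CPM at 1 month, 3642, 2600.2 and 2323 CPM at 2 months and 5415, 7356 and 6616 CPM at 6 to 8 months, which is 5217 ± 2431 CPM (SD, n = 7) against 163 ± 109 in the other cells. The groups did not overlap. The difference, as the log2 ratio of CPM with a pseudocount of 10 CPM, was 5.12 ± 1.46 (SD, n = 7), a scale that understates the change of low genes. Of the 13474 genes with at least 50 UMIs in MOLs or 200 in the other cells, 143 (1.06%) were at least 4-fold higher in MOLs in 7 of 7 experiments and 250 (1.86%) at least 4-fold lower. These counts follow the pseudocount: with 1 CPM they were 251 and 1369, and with 50 CPM 58 and 45. The 143 genes held 21.2% of MOL UMIs at 1 month, 21.1, 20.8 and 21.7% at 2 months and 18.0, 18.5 and 18.9% at 6 to 8 months, against 0.647 to 2.49% of the UMIs of other cells. The 5 markers that chose the cells held 0.951 to 1.56% of MOL UMIs.

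The markers of the rule are on chr17:37010743-37023398 (Mog), chr7:30899176-30914873 (Mag), chr9:120149707-120181484 (Mobp), chr3:31149920-31164324 (Cldn11) and chr19:41061710-41077113 (Opalin) of GRCm38 in the GENCODE annotation. Cldn11, the tight junction protein of the sheath, stood at 3246 CPM at 1 month, 6592, 4875 and 5677 CPM at 2 months and 1900, 1940 and 2829 CPM at 6 to 8 months. Mag, an adhesion molecule of the layer that faces the axon, stood at 3752 CPM at 1 month, 1282, 1419 and 2019 CPM at 2 months and 2685, 2916 and 3790 CPM at 6 to 8 months. Mog, on the outermost layer, ranged from 1744 to 3412 CPM, Mobp from 1545 to 3513 CPM and Opalin from 1423 to 2508 CPM. In the other cells the means of the 5 genes were 70.5 to 174 CPM.

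**Figure D2:**
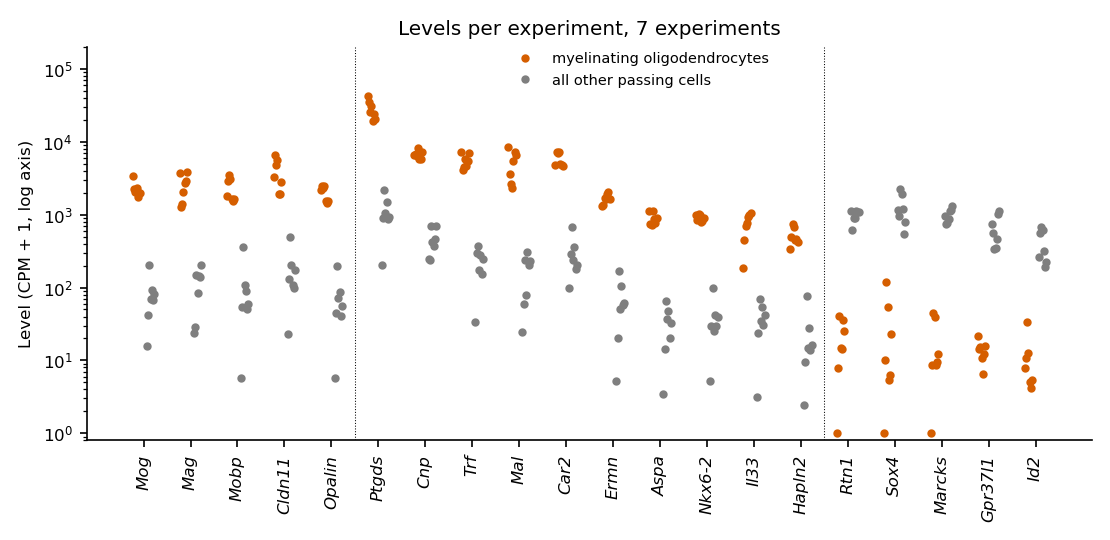
Level of 20 genes in MOLs (orange) and in all other cells (grey), 1 point per experiment, as CPM + 1 on a log axis. The rule's 5 markers stand at the left, 10 further genes that were higher in MOLs in the middle and 5 that were lower at the right; for Mal the MOL points lie at 2323 to 8562 CPM.

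The genes named as higher in MOLs were the 20 with the highest lowest ratio over experiments, leaving out the genes of the rule. They included Ptgds, the prostaglandin D synthase of mature oligodendrocytes, at 28333 ± 8494 CPM (SD, n = 7) against 1089 ± 607, Trf, the iron carrier transferrin, at 5503 ± 1203 against 222 ± 113, and Mal, with the values above. Car2, a carbonic anhydrase, stood at 5806 ± 1274 CPM against 290 ± 186. Ermn, a cytoskeletal protein of late myelination, stood at 1668 ± 263 CPM against 66.1 ± 55.5, and Nkx6-2, a homeodomain factor needed for paranodes, at 909 ± 93.5 CPM against 37.6 ± 29.4. Ptgds varied most between experiments among these in absolute terms, from 19322 CPM in the first experiment at 6 to 8 months to 42652 CPM at 1 month.

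Among the 23 myelin protein genes compared outside the rule, 22 were higher in MOLs in 7 of 7 experiments and 14 at least 4-fold, with a median log2 ratio of 3.17. Over all genes compared, 1.06% were at least 4-fold higher in 7 of 7 experiments. The share of all genes that were higher or lower in 7 of 7 without a fold limit is not given here. Counts of that kind, here and below, describe the lists only. Cnp, the enzyme CNPase of uncompacted myelin, stood at 6687 ± 813 CPM (SD, n = 7) against 449 ± 189, and Cryab, a small heat shock protein, at 5441 ± 517 CPM. Mbp, myelin basic protein, stood at 3018 CPM at 1 month, 6502, 10705 and 9532 CPM at 2 months and 4185, 3672 and 5096 CPM at 6 to 8 months. The exception was Cd9, a tetraspanin, at 1347 ± 299 CPM in MOLs and 1216 ± 522 CPM in other cells, higher in 4 of 7 experiments.

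Lipid genes differed by pathway in these counts. Of 23 genes for galactolipids and fatty acids, 18 were higher in MOLs in all 7 experiments and 7 at least 4-fold (median log2 ratio 1.60), led by Ugt8a, which makes galactosylceramide, at 695 ± 128 CPM (SD, n = 7) against 67.9 ± 31.9 and by Fa2h, which hydroxylates its fatty acid, at 396 ± 72.9 CPM against a mean of 37. Aspa, which releases acetate from N-acetylaspartate, stood at 896 ± 170 CPM against a mean of 30.6. The cholesterol list, in contrast, held no gene at least 4-fold higher, where 1.06% of all genes compared were. Of its 24 genes 9 were higher and 6 lower in all 7 experiments, with a median log2 ratio of 0.29, and the share over all genes is not given. Sc5d, a late step, stood at 116 ± 19.7 CPM (SD, n = 7) against 48.5 ± 4.9, and Sqle, squalene epoxidase, at 32.9 ± 4.23 CPM against 59.4 ± 11.7.

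Genes for contact with axons and for transport were mostly higher, again by counts without the share over all genes. Of 20 genes of axon contact, nodes and paranodes 12 were higher in 7 of 7 experiments and 4 at least 4-fold, among them Hapln2, a link protein of the nodal matrix, at 512 ± 143 CPM (SD, n = 7) against a mean of 22.3, and Cntn2, a juxtaparanodal adhesion protein, at 265 ± 83.1 CPM against a mean of 17.5. Lingo1, an inhibitor of oligodendrocyte differentiation, was low in MOLs at 1.34 CPM against 65.3 CPM. Of 22 genes of gap junctions, channels and transport 15 were higher in all experiments and 6 at least 4-fold, such as the connexin Gjb1, at 389 ± 109 CPM against a mean of 23.7. The monocarboxylate transporter Slc16a1, which exports lactate, stood at 53.3 ± 15.7 CPM against 25.1 ± 3.82, while Ldhb, a lactate dehydrogenase subunit, was lower, at 149 ± 30.3 CPM against 421 ± 88.6. Of 15 iron genes Trf, Fth1 and Slc11a2, an iron transporter, were higher in all 7 experiments and 8 were lower. Fth1, the heavy chain of ferritin, stood at 23270 ± 2188 CPM against 2016 ± 704.

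Transcription factors gave a mixed picture. Of 25 factors with roles in the oligodendrocyte lineage, 7 were higher and 12 lower in MOLs in all 7 experiments (median log2 ratio -0.61). The share over all genes is not given beside these counts. Myrf, which switches on myelin genes, stood at 193 ± 36.4 CPM (SD, n = 7) against 17.9 ± 9.98, and Sox10 at 396 ± 59.2 CPM against 201 ± 117. Olig1 stood at 1263 ± 208 CPM against 1251 ± 898 and was higher in 5 of 7 experiments, and Olig2 at 260 ± 49 CPM against 522 ± 430. The other cells include 1568 oligodendrocyte precursors, which express Olig1 and Olig2 as well. Factors of immature cells were low: Sox4 stood at 30.1 ± 42.3 CPM against 1255 ± 613, and Sox6, which holds precursors back from differentiating, at 1.65 ± 1.49 CPM against 120 ± 73.6.

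The 10 genes with the lowest ratio to the other cells, taken at their highest experiment, included Rtn1 (19.2 ± 14.8 CPM against 972 ± 185), a reticulon of neurons, Marcks (16.7 ± 17.1 against 983 ± 214), a substrate of protein kinase C, Gpr37l1 (12.8 ± 4.74 against 657 ± 314), a receptor of astrocytes and precursors, and Id2 (10.4 ± 10.4 against 406 ± 205), an inhibitor of helix-loop-helix factors, all with n = 7. The second experiment at 2 months had the highest MOL levels of Sox4 (117 CPM), Sox11 (103 CPM) and Nnat (138 CPM), genes of immature neurons.

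Lists that mark other cell types were low in MOLs, by counts that lack the share over all genes lower in all 7 experiments. Of all genes compared, 1.86% were at least 4-fold lower. Of 13 microglial genes 13 were lower in all 7 experiments, their summed level was 13.8 to 35.7 CPM in MOLs and C1qa stood at 0.395 CPM. Of 13 astrocyte genes 13 were lower, 10 of them at least 4-fold, with a summed level of 644 CPM at 1 month, 347, 403 and 322 CPM at 2 months and 270, 286 and 320 CPM at 6 to 8 months, Clu being the most abundant and Aqp4 at 2.01 CPM. Precursor genes were lower in 15 of 16, the exception being Olig2 (median log2 ratio -3.30), with Pdgfra at 2.73 CPM in MOLs against 378 CPM. Neuronal genes were lower in 12 of 13, the exception being Prox1, a factor of granule neurons, at 108 ± 22.4 CPM (SD, n = 7), with a summed level of 222 CPM at 1 month, 140, 463 and 226 CPM at 2 months and 186, 165 and 194 CPM at 6 to 8 months. Cell cycle genes were lower in 22 of 22, and 12 of 12 mural genes and 12 of 13 endothelial genes were lower, Kdr being the exception at 12.7 ± 3.47 CPM against 7.12 ± 2.19. The part of such RNA in the differences given here was not tested.

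In droplet data, free RNA can give UMIs of abundant genes to cells that do not make them. The other cells also include the 564 cells with 3 or more markers that the limits left out, and the part of free RNA in the shares that follow was not tested. At 1500 UMIs, Ptgds was detected in 13.4% of the other cells at 1 month, in 21.8, 56.9 and 28.1% at 2 months and in 20.5, 19.3 and 17.2% at 6 to 8 months. The second experiment at 2 months was highest in this share, and it also had the shallowest MOLs. Detection of Il33, an alarmin of the interleukin-1 family that mature oligodendrocytes keep in the nucleus, was 0.278 to 6.18% in the other cells and is given for MOLs below.

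Age was first compared within Version 3 of the chemistry, between the 3 experiments at 6 to 8 months and the library at 1 month, whose 14 MOLs form 1 sum that is assumed to vary like the other groups. Il33 was higher at 6 to 8 months, and 10 genes were lower, among them cholesterol enzymes and Hist1h1c, a linker histone. Of 5159 genes tested, 11 passed (0.213%), 1 of them higher (0.0194%) and 10 lower (0.194%), by edgeR's quasi-likelihood test at an adjusted p of 0.05 over all genes tested, and 516 had an unadjusted p under 0.05. Among the 11 is Slc1a2, a gene of the rule that is given as a description only, and the genes outside the rule were 1 higher and 9 lower. DESeq2 called 43 (10 higher and 33 lower), which included the 11. The balance of the calls turned with no filter on low counts, to 48 higher and 27 lower. It also turned among MOLs with no limiting gene, neither newly formed nor of another type, to 3 higher and 2 lower. Without the third experiment at 6 to 8 months only Hist1h1c stayed below 0.05.

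Il33 (chr19:29925114-29960718, + strand of GRCm38) stood at 187 CPM in the MOLs at 1 month, from 27 UMIs, at 452, 695 and 779 CPM at 2 months and at 929, 975 and 1064 CPM at 6 to 8 months. The 3 ages did not overlap. The difference between 6 to 8 months and 1 month was 2.40 ± 0.35 on the log2 scale (SE; edgeR adjusted p = 0.016, and 0.093 without the third experiment at 6 to 8 months). Among MOLs with no limiting gene it was 4.70, but the 5 cells left at 1 month held 2 UMIs of Il33. The ratio of CPM there was 20.5, with a 95% counting interval of 5.67 to 169. In MOLs thinned to 1500 UMIs, a UMI of Il33 was found in 15.4% at 1 month (2 of 13, exact 95% binomial interval 1.92 to 45.4%), in 38.2, 51.7 and 57.9% at 2 months and in 70.1, 70.3 and 75.2% at 6 to 8 months, all above the share in other cells. Unthinned, the shares were 50% at 1 month, 61.3, 62.7 and 69.7% at 2 months and 93.4, 96.1 and 97.5% at 6 to 8 months. Against 2 months, where the chemistry differs, the difference was 0.54 ± 0.17 (SE; edgeR adjusted p = 0.017).

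Hist1h1c, which packs nucleosomes, had the largest fall of the 10 genes. It stood at 339 CPM at 1 month, 156, 162 and 153 CPM at 2 months and 35.4, 30.7 and 50 CPM at 6 to 8 months, and the 3 ages did not overlap. It fell by 3.12 ± 0.33 on the log2 scale between 1 month and 6 to 8 months (SE; edgeR adjusted p = 0.0016) and by 2.11 ± 0.17 between 2 months and 6 to 8 months (adjusted p = 6.2e-06). The chemistry differs between 2 months and 6 to 8 months. Hist1h1e, another linker histone, was among the genes with the largest rise in that comparison.

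Enzymes of cholesterol synthesis, 3 of them, passed in the comparison with 1 month. Hmgcs1, which makes HMG-CoA at the head of the pathway, stood at 353 CPM at 1 month, 128, 152 and 169 CPM at 2 months and 143, 142 and 137 CPM at 6 to 8 months. Fdps, farnesyl diphosphate synthase, stood at 436 CPM at 1 month, 148, 158 and 182 CPM at 2 months and 186, 187 and 150 CPM at 6 to 8 months, and Cyp51, which demethylates lanosterol, at 215 CPM, at 43, 43.9 and 43.8 CPM and at 70, 81.4 and 72.4 CPM. For all 3 genes the 1-month library was above every other experiment. They fell by 1.33 ± 0.23, 1.33 ± 0.24 and 1.53 ± 0.28 on the log2 scale to 6 to 8 months (SE; edgeR adjusted p = 0.038, 0.048 and 0.048). These calls were close to the threshold: with scaling to total UMIs the adjusted p of all 3 was 0.065, and with edgeR's own filter on low counts it was 0.109 to 0.118. Leaving out any 1 of the later experiments other than the first at 2 months also raised it above 0.05, up to 0.10. Among MOLs with no limiting gene, newly formed or of another type, 5 remained at 1 month. There the differences were -1.54 for Hmgcs1, -0.85 for Fdps and -1.14 for Cyp51, with an adjusted p of 0.31, 0.48 and 0.49.

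Of the 18 cholesterol genes tested against 1 month, 15 (83.3%) had a negative difference, where 47.2% of all genes tested outside the rule had one. Against 2 months 13 of the list were tested, so some of the 18 entered only through their detection at 1 month. Such entry can favour a negative difference, so this count and the median that follows are a description only. The 3 enzymes passed as lower, as did 0.194% of all genes tested, and the median difference was -0.76, against 0.04 over all genes tested. Msmo1, a demethylating step, differed by -1.15 and Idi1 by -1.22 without passing, whereas Srebf2, the factor that drives the pathway, differed by 0.03 and Insig1, which holds it back, by 0.23. The summed level of the list in MOLs was 2672 CPM at 1 month, 1405, 1546 and 1583 CPM at 2 months and 1592, 1447 and 1468 CPM at 6 to 8 months. In the other cells it was 1201 CPM at 1 month, 1208, 1341 and 1154 CPM at 2 months and 1133, 980 and 1093 CPM at 6 to 8 months. The summed astrocyte list in MOLs was also highest at 1 month, at 644 CPM against 270 to 403 CPM later. Its part in the cholesterol differences was not tested.

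Because 3 enzymes of 1 pathway passed, the stretches before the transcription starts of Hmgcs1 and Cyp51 were searched (that of Fdps was not analysed here) for the letters TCACCCCAC, a sterol regulatory element, and for CCAAT, a box that NF-Y binds, on both strands. The stretches are from RefSeq (GRCm38.p6), are shown 5′ to 3′ on the strand of the gene, and hold the motif matches of each window in capitals (ATTGG is CCAAT on the other strand). That of Hmgcs1 is chr13:119690102-119690322 (+ strand, 249 to 29 bases before the RefSeq start) and that of Cyp51 is chr5:4104710-4104738 (- strand, 41 to 13 bases before the RefSeq start). The GENCODE annotation places Cyp51 at chr5:4081145-4104746, so there this stretch lies inside the gene, because the annotations differ in its start.
Hmgcs1: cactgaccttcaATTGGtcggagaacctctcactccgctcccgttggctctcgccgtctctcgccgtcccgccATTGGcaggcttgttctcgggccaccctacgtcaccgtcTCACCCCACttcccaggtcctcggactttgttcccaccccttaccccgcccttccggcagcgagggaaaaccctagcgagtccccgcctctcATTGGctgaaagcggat
Cyp51: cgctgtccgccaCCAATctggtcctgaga
Hmgcs1 held 1 match to the sterol element and 3 to CCAAT, and Cyp51 held 0 and 1. Over windows from 250 bases before to 50 bases after the start, the sterol letters were in 1 of 20 windows of cholesterol genes (5%, that of Hmgcs1) and in 181 of 32851 windows in all (0.551%). CCAAT was in 16 of the 20 (80%) and in 12289 of 32851 (37.4%). Of the 24 listed genes 17 matched a window. A match describes the letters only.

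The other genes that were lower at 6 to 8 months than at 1 month came from several pathways. Gsn, gelsolin, which severs actin, stood at 1370.5 CPM at 1 month, 463, 482 and 702 CPM at 2 months and 422, 474 and 518 CPM at 6 to 8 months, and fell by 1.54 ± 0.23 on the log2 scale (SE; edgeR adjusted p = 0.018). Gamt, which makes creatine, stood at 955 CPM at 1 month, 428, 378 and 408 CPM at 2 months and 346, 364 and 285 CPM at 6 to 8 months, and fell by 1.53 ± 0.21 (SE; adjusted p = 0.011). Fabp5, a fatty acid binding protein, stood at 3115 CPM at 1 month, 1429, 773 and 1033 CPM at 2 months and 950, 958 and 880 CPM at 6 to 8 months, and fell by 1.75 ± 0.27 (SE; adjusted p = 0.018). In each of these the 1-month library was highest and the 2 later ages lay close together or overlapped. Nudt4, a diphosphoinositol phosphatase, fell by 1.34 ± 0.23 (adjusted p = 0.038), a call that was lost with total UMI scaling (0.065), with edgeR's own filter on low counts (0.109) and without the first (0.069) or the third (0.094) experiment at 6 to 8 months or the second (0.071) or the third (0.052) at 2 months. Without the third experiment at 6 to 8 months, the adjusted p of Gsn was 0.093, of Fabp5 0.10 and of Gamt 0.054, and without the first at 6 to 8 months that of Gsn and Fabp5 was 0.052. Among MOLs with no limiting gene, 5 of them at 1 month, the differences kept their sign. They were -1.13 for Gsn, -1.37 for Fabp5 and -0.90 for Nudt4, with an adjusted p of 0.41, 0.15 and 0.48.

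Both remaining genes are also astrocyte markers. Slc1a2, which the rule limits, stood at 235 CPM at 1 month, 55, 45.6 and 41.7 CPM at 2 months and 50.7, 39.7 and 46 CPM at 6 to 8 months. Since it helped to choose the cells, these levels are a description. Clu, clusterin, stood at 208 CPM, at 47, 71.8 and 69.5 CPM and at 42.9, 48.3 and 53.3 CPM (fell by 2.11 ± 0.35; edgeR adjusted p = 0.035, 0.065 with total UMI scaling, 0.093 without the third experiment at 6 to 8 months and 0.052 without the first at 6 to 8 months or the third at 2 months). The summed astrocyte list was highest in the 1-month MOLs, as given above, with Aldoc at 166 CPM and Gja1 at 0. Among MOLs with no limiting gene, of which 5 remained at 1 month, the difference of Clu was 0.98, in the other direction. It came from 1 UMI at 1 month (ratio of CPM 1.55, 95% counting interval 0.277 to 61.4). In those MOLs 5 genes were called over all: Il33, Hist1h1c and Gamt, which are among the 11, and Apoe and Pmp22. This setting also left out MOLs with a newly formed gene, so the part of astrocyte RNA in the 1-month sum was not tested.

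**Figure D3:**
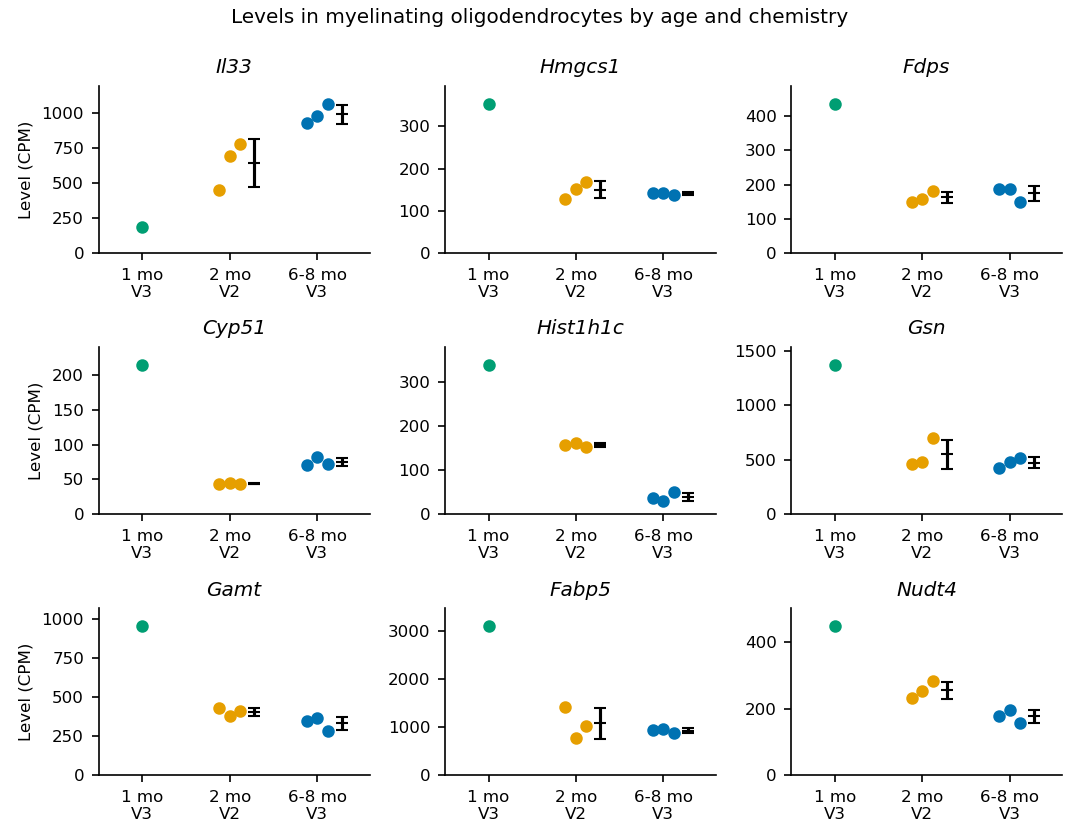
Level of 9 genes in MOLs in each experiment at 1 month, 2 months and 6 to 8 months (points, CPM), with the mean ± SD of the 3 experiments at the 2 later ages. Il33 is lowest at 1 month at 187 CPM and the other 8 are highest there, Hist1h1c at 339 CPM.

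In the gene lists few members differed from 1 month by the test, as was so over all genes tested (0.213% called). Of 23 myelin protein genes tested outside the rule, the call was Gsn (median difference -0.03 over the list). None passed among 22 galactolipid and fatty acid genes, 13 transcription factors, 17 axon contact genes, 19 genes of channels and transport, 6 iron genes, 4 newly formed genes outside the rule and 6 immediate early genes. In the late mature list Il33 passed among 20, and in the myelin-forming list Gsn among 15 outside the rule.

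Between 2 months and 6 to 8 months, 1921 of 3733 genes tested passed in MOLs (51.5%), 1057 higher (28.3%) and 864 lower (23.1%), by edgeR's quasi-likelihood test at an adjusted p of 0.05. The chemistry changed between the same groups, so that none of these differences can be told apart from it. With scaling to total UMIs the split was 1244 higher and 604 lower, and the median over genes was 0.115 against 0.02. Without the mixed library 1927 passed, 1910 of them shared. The genes with the largest rise among those whose experiments did not overlap were Gm42418, which overlaps ribosomal RNA sequence, at 33.9, 43.3 and 27.8 CPM at 2 months and 1104, 3830 and 1521 CPM at 6 to 8 months (5.79 on the log2 scale), and Lars2, a mitochondrial leucyl-tRNA synthetase, at 4.01, 7.12 and 6.41 CPM and 57, 231 and 88.8 CPM (4.29). In the Version 3 library at 1 month they stood at 3316 and 138 CPM, nearer to 6 to 8 months. The largest fall was that of Rpl23a, a ribosomal protein with many near-identical copies in the genome, at 902, 740 and 701 CPM at 2 months and 143, 129 and 118 CPM at 6 to 8 months, with 90 CPM at 1 month.

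Of the genes called higher at 6 to 8 months than at 2 months, 3 are given with their 1-month level. They were chosen after their values were seen. Anln, a septin-binding scaffold of myelin, stood at 125 CPM at 1 month, 94, 110 and 95.1 CPM at 2 months and 321, 313 and 264 CPM at 6 to 8 months, a rise of 1.48 ± 0.12 on the log2 scale over 2 months (SE; edgeR adjusted p = 6.5e-06). Grm3, a metabotropic glutamate receptor, stood at 48.5 CPM, at 21.9, 27.7 and 19.2 CPM and at 92.7, 94 and 88.5 CPM (1.84 ± 0.15; adjusted p = 6.5e-06). St18, a zinc finger factor, stood at 41.5 CPM, at 49.9, 63.7 and 62.0 CPM and at 126, 114 and 112 CPM (0.92; adjusted p = 1.7e-04). In these 3 genes the experiments at 6 to 8 months lay above the other 4, and their differences from 1 month did not pass.

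Of 23 myelin protein genes tested outside the rule between 2 months and 6 to 8 months, 4 were higher (Mal, Anln, Bcas1 and Cd9) and 7 lower, with a median of -0.21. Mal rose by 1.08 ± 0.19 on the log2 scale (SE; edgeR adjusted p = 8.1e-04), while Mbp fell by 1.13 ± 0.18 (adjusted p = 4.3e-04). The markers of the rule are given without a test: the levels of Mag, listed above, were higher at 6 to 8 months and those of Cldn11 lower, with no overlap. Mobp stood at 1807 CPM at 1 month, 2924, 3513 and 3066 CPM at 2 months and 1630, 1545 and 1662 CPM at 6 to 8 months. For Mal, Mag, Cldn11 and Mobp the 1-month value was nearer to 6 to 8 months than to 2 months. Axon contact genes had 7 higher and 3 lower of 16, channels and transport 6 and 4 of 18, galactolipid and fatty acid genes 7 and 4 of 21, cholesterol genes 2 (Cyp51 among them) and 2 (Pmvk and Insig1) of 13, and cytoskeletal genes 7 and 9 of 24. Over all genes tested 28.3% were higher and 23.1% lower, and nothing particular to a list is read from its count. The gap junction gene Gjb1 fell by 0.91 on the log2 scale, and Cntn2 and Nfasc, which hold the sheath to the axon, rose by 0.75 and 0.95.

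In the late mature and the myelin-forming list, which mark stages of maturation, the difference in summed level between the later ages changed when the most abundant gene was left out. The summed late mature list, outside the rule, was at 94294 CPM at 1 month, 88493, 84736 and 88542 CPM at 2 months and 73389, 79472 and 73881 CPM at 6 to 8 months, and the later ages did not overlap. On the log2(CPM + 1) scale 2 months had a level of 16.41 ± 0.04 (SD, n = 3), whereas 6 to 8 months had one of 16.20 ± 0.06 (SD, n = 3), a difference of -0.21 (exact two-sided permutation test, p = 0.1, the smallest it can give). Without Ptgds, its most abundant gene, the list was at 53293, 59489 and 57144 CPM at 2 months and 54067, 55390 and 53454 CPM at 6 to 8 months, and the ages overlapped (difference -0.06, exact p = 0.4). The myelin-forming list was at 15678 CPM at 1 month, 9058, 7663 and 8656 CPM at 2 months and 9874, 12116 and 11835 CPM at 6 to 8 months, or 13.04 ± 0.12 and 13.46 ± 0.16 on that scale (SD over 3 experiments each), a difference of 0.41 (exact two-sided permutation test, p = 0.1). Without Mal, its most abundant gene, it was at 5415, 5063 and 6333 CPM at 2 months and 4459, 4760 and 5218 CPM at 6 to 8 months, a difference of -0.22 in the other direction (exact p = 0.2). Of its 11 genes tested outside the rule 4 were higher and 3 lower. The newly formed list, at far lower levels, stood at 609 CPM at 1 month, 490, 520 and 530 CPM at 2 months and 550, 650 and 586 CPM at 6 to 8 months, a difference of 0.21 (exact two-sided permutation test, p = 0.1) with 2 genes higher and 2 lower of 4 tested. The late mature and myelin-forming lists were highest at 1 month, and without their most abundant gene only the latter was.

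Whether age differences were particular to MOLs was tested as the interaction of cell class and age, with the experiment as a block. Against all other cells, 0 genes passed in either comparison by edgeR (0 of 3733 with 2 months and 0 of 5159 with 1 month; both 0%), with 782 and 491 at an unadjusted p under 0.05, and DESeq2 called 53 and 55. Without the first experiment at 6 to 8 months, edgeR called 606 in the comparison with 2 months. The other cells differ in make-up between experiments: in the first at 2 months their summed microglial list was 9352 CPM.

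Against oligodendrocyte precursors alone, a narrower class of the same lineage (1568 cells, chosen by 2 or more of Pdgfra, Lhfpl3 and C1ql1), the 6 to 8 month against 1 month difference differed for 28 of 5159 genes (0.543%, 10 higher and 18 lower in MOLs relative to precursors; edgeR, adjusted p under 0.05). The precursors also differed in make-up: their summed cell cycle list was 964 CPM at 1 month, 312, 209 and 248 CPM at 2 months and 173, 171 and 209 CPM at 6 to 8 months, and its part in these differences was not tested. In precursors Gsn stood at 134 CPM at 1 month and 180.5, 151 and 191 CPM at 6 to 8 months, while in MOLs it fell, and the difference of the differences was -1.83 ± 0.23 on the log2 scale (SE; edgeR adjusted p = 2.9e-05). For Fabp5 precursors stood at 261 CPM at 1 month and 196, 173 and 191 CPM at 6 to 8 months, and the difference was -1.23 ± 0.20 (SE; adjusted p = 7.2e-04). For Hist1h1c precursors stood at 35.5 CPM and at 15.7, 23.0 and 23.1 CPM, and the difference was -2.38 ± 0.39 (SE; adjusted p = 7.2e-04). Gsn, Fabp5 and Hist1h1c entered the test through their detection in MOLs, where their levels were higher than in precursors. Their differences are therefore given as a description. Fabp5 and Hist1h1c were thus lower at 6 to 8 months in both classes, with the larger difference in MOLs, whereas the level of Gsn in precursors was higher in each experiment at 6 to 8 months than at 1 month.

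In the other direction, Dynll1, a light chain of dynein, stood in MOLs at 332 CPM at 1 month and 845, 719 and 624 CPM at 6 to 8 months, and in precursors at 1762 CPM at 1 month and 1169, 1389.9 and 1209 CPM, a difference of 1.58 ± 0.26 on the log2 scale (SE; edgeR adjusted p = 7.2e-04). Against 2 months the interaction with precursors passed for 299 of 3733 genes (8.01%, 125 higher and 174 lower). Of these, Hist1h1c differed by -1.53 and Gsn by -1.19, again as a description. Mal (3.55), Aspa (3.53) and Il33 (2.55) had positive differences, which are given as a description only. The genes tested were those detected in 20% or more of MOLs, so such genes entered through MOLs, while precursors hold few UMIs of them. No count without such genes is given. In precursors Il33 was at 2.16, 42.6 and 9.25 CPM at 2 months and at 0, 2.88 and 3.56 CPM at 6 to 8 months. The myelin protein list summed to 10865 CPM in precursors at 1 month, where MOLs were scarcest, to 5567, 8829 and 6937 CPM at 2 months and to 5814, 7577 and 9013 CPM at 6 to 8 months, and the part of free MOL RNA was not tested. The genes of this and the foregoing paragraph were chosen after their values were seen.

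The reporters of the sort were low in MOLs. The eGFP level was 263 CPM at 1 month, 151, 211 and 191 CPM at 2 months and 143, 166 and 117 CPM at 6 to 8 months, a mean of 178 ± 48.8 CPM (SD, n = 7) against 524 ± 196 CPM in the other cells, and it was lower in 7 of 7 experiments (log2 ratio -1.52 ± 0.25). A UMI of eGFP was found in 92.9% of MOLs at 1 month, 43.6, 34.0 and 37.8% at 2 months and 45.6, 54.9 and 50.4% at 6 to 8 months, against 84.2%, then 35.1, 49.4 and 61.2%, then 61.8, 81.4 and 74.9% of other cells. MOLs were deeper than the other cells in 5 of these experiments. After thinning to 1500 UMIs the share in MOLs was lower in each experiment, at 38.5% at 1 month, 19.4, 23.3 and 23.8% at 2 months and 18.2, 20.4 and 15.9% at 6 to 8 months, against 57.4%, then 24.3, 40.2 and 48.6%, then 38.6, 49.6 and 35.0% of other cells.

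A cell was counted as recombined by the study's limits: under 4 UMIs of the intact tdTomato locus and over 1 of the recombined one in Version 2, and under 8 and over 2 in Version 3. By these limits 41 of 6565 MOLs were recombined (0.625%), against 62 of 1568 precursors (3.95%) and 1587 of 17811 other cells (8.91%). By experiment the count in MOLs was 0 at 1 month (exact 95% binomial upper limit 23.2%), 1, 19 and 4 at 2 months and 3, 2 and 12 at 6 to 8 months, which is 0.163, 0.976 and 1.24%, and 0.182, 0.232 and 1.03%. MOLs were below the other cells in 7 of 7 experiments, in which the share was 12.3% at 1 month, 4.89, 13.5 and 20% at 2 months and 16.2, 3.19 and 5.22% at 6 to 8 months. The mixed library held 0 recombined cells among its 39 MOLs.

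In MOLs the mean share at 2 months was 0.793% ± 0.561 (SD, n = 3), whereas that at 6 to 8 months was 0.482% ± 0.477 (SD, n = 3), a difference of -0.311 percentage points that was smaller than the spread (exact two-sided permutation test, p = 0.7). The intact reporter, transcribed without recombination, was at 1040 ± 234 CPM (SD, n = 7) in MOLs and 1643 ± 658 CPM in the other cells, and the recombined elements at 30.6 ± 12 CPM and 222 ± 108 CPM. The recombined elements ranged from 16.0 to 42.9 CPM in MOLs and from 87.1 to 389 CPM in the other cells. Free RNA can carry a few such UMIs into MOLs, and its part in the 41 recombined cells was not tested.

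**Figure D4:**
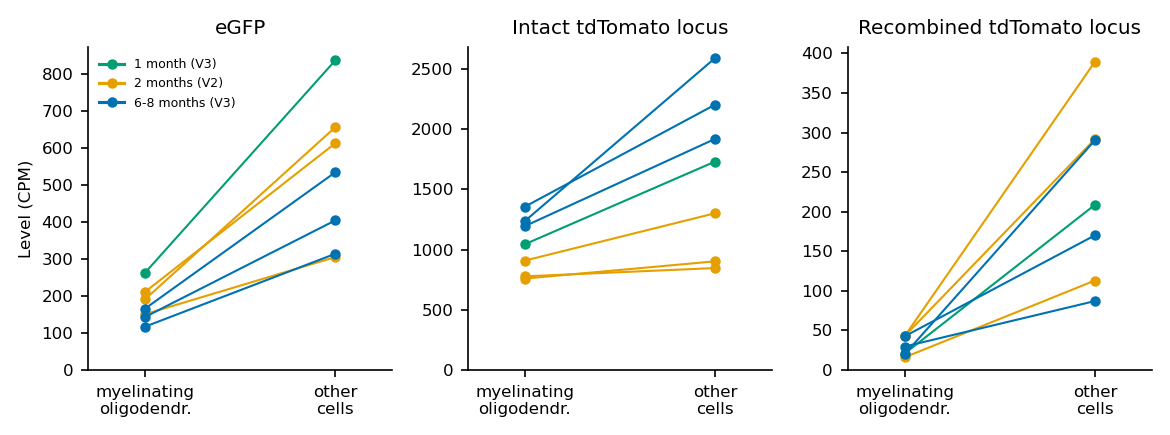
Level of eGFP, of the intact and of the recombined tdTomato locus (CPM) in MOLs and in all other cells, 1 line per experiment, coloured by age and chemistry version. Each line rises from MOLs to the other cells for eGFP, from a mean of 178 to one of 524 CPM, and for the recombined locus, from 30.6 to 222 CPM.

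The spread between MOLs of 1 experiment differed from gene to gene. It was measured as the variance beyond counting noise over the squared mean, in the 6 experiments with 100 or more MOLs and over 1906 genes with at least 0.2 UMIs per MOL, a limit chosen after values were seen. The median gene had a spread of 0.0241. All 23 myelin protein genes measured outside the rule lay above it, with a median of 0.0721, and so did 12 of 12 axon contact genes (median 0.0905), 16 of 16 late mature genes (0.183) and 7 of 7 cholesterol genes (0.281). Most genes of the oligodendrocyte lists thus varied more between MOLs than the median gene did. The few measured genes of other lists did so too, such as 2 of 2 immediate early genes and 1 of 1 astrocyte gene.

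Summed lists are set here beside each other only. The summed myelin proteins had a spread of 0.0173 to 0.0532 across experiments, the axon contact list 0.0130 to 0.0297 and the late mature list 0.0299 to 0.0826. The summed cholesterol list was higher than these in each experiment, at 0.157 to 0.303, and the immediate early genes stood at 0.315 to 1.39. Some lists of which MOLs hold few UMIs reached higher values and varied widely between experiments. The mural list ranged from -0.179 to 303, the microglial list from -1.035 to 64.8 and the cell cycle list from 0.0868 to 20.9. For the neuronal list the range was 0.176 to 12.4 and for the astrocyte list 0.235 to 8.68.

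Among single genes, Hmgcs1 had a spread of 0.417 to 1.31, Acly, which makes acetyl-CoA from citrate, one of 0.505 to 1.80 and Ptgds one of 0.359 to 0.583. Mog had one of 0.0435 to 0.132, but it helped to choose the cells, so no contrast is drawn from it. Xist, transcribed from the inactive X chromosome of females and chosen after its values were seen, had a spread of 1.04 to 3.86. The list with Il33 and the genes of antigen presentation had a spread of 0.414 to 0.472 at 2 months and 0.116 to 0.137 at 6 to 8 months, with no overlap. Il33, its most abundant gene, alone had a spread of 0.729 to 0.995 at 2 months and 0.180 to 0.245 at 6 to 8 months. The contrast is thus not read as one of the whole list, and the chemistry and the depth differ between these ages. In thinned MOLs Hmgcs1 was detected in 23.1% at 1 month, 15.0, 18.5 and 21.1% at 2 months and 18.0, 16.1 and 20.1% at 6 to 8 months, against 10.1 to 16.1% of the other cells.

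**Figure D5:**
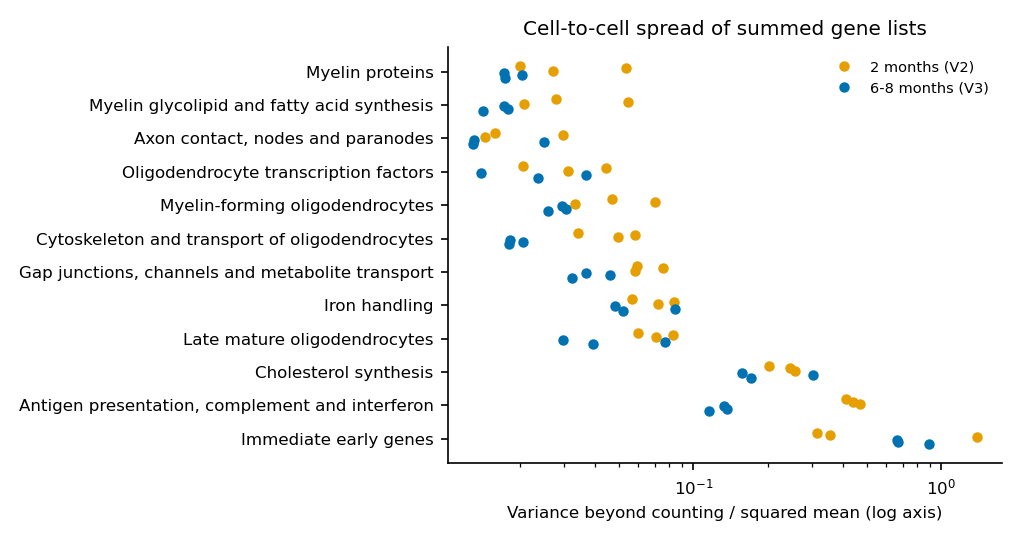
Cell-to-cell spread in MOLs (variance beyond counting over the squared mean, log axis) of 12 summed gene lists, 1 point per experiment with 100 or more MOLs, coloured by age. Myelin proteins lie at 0.0173 to 0.0532, the cholesterol list at 0.157 to 0.303 and the immediate early genes at 0.315 to 1.39.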

How the data were processed

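The authors deposited UMI counts per gene and barcode for 8 libraries in 1 matrix, made with Cell Ranger 3.0.2 against mm10-3.0.0 with added reporter elements, and cutadapt 1.18 and Seurat are also named in the submitters' processing notes. These raw counts were used as deposited. The members of the MOL class and all gene lists were chosen with earlier results of these data known. No doublet caller was run, and the rule's limit on genes of other types stood in for one. Counts were summed over the MOLs of an experiment (at least 5 cells) and tested with edgeR 4.0.16 in R 4.3.3 (quasi-likelihood test, TMM scaling, Benjamini-Hochberg adjustment at 0.05, all 7 experiments in 1 fit), over genes detected in 20% or more of MOLs at either age. DESeq2 1.42.0 was an alternative. Shares and list levels were compared with exact permutation tests over all splits of the experiments. Exact binomial intervals came from scipy 1.17.1, and the fits were tested on simulated data. Genes were named by fixed rules, apart from those said to be chosen after their values were seen: against other cells the 20 with the highest lowest ratio and the 10 with the lowest highest ratio, in age comparisons the 10 called genes of each direction with the largest change among those whose experiments did not overlap, and members of the gene lists. The alternatives covered scaling, filters, pseudocounts, the marker rule, thinning to 1500 UMIs and leaving out each experiment. A library's total UMIs, given above, set its depth. Some genes of the lists are not reported by name here.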

Additional observations from a re-analysis of the deposited data

Results flagged for a closer look

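Differences with age that differed between MOLs and oligodendrocyte precursors were counted in an interaction test with the experiment as a block (edgeR, adjusted p under 0.05). The difference between 6 to 8 months and 1 month differed between these classes for 28 genes, of which 1-month values in MOLs come from 14 cells. Among them, Cacna1h and Cyp46a1, chosen after their values were seen, rest on 7 and 5 UMIs in those cells. The difference between 6 to 8 months and 2 months differed for 299 genes, in a comparison where the chemistry changes with age in both classes. Both counts are over genes detected in 20% or more of MOLs, whatever their level in precursors.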

How the results depend on the processing

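No paired analysis was possible because the labels give no replicate numbers that ages share. For 54 single-gene results of the age comparisons outside the rule, 795 repeats under the alternatives kept the direction and the side of the threshold. Of the rest, 52 kept the direction but lost the call, and 1 reversed (Clu, 0.98 against 1 month among MOLs with no limiting gene). The 11 calls against 1 month became 43 with DESeq2, 7 with edgeR's own filter on low counts and 75 with no filter. They became 5 without MOLs that carried a limiting gene, 6 with total UMIs, and 1 to 20 when single experiments were left out. The 1921 calls against 2 months became 4198 with edgeR's filter and 4527 with no filter, which test more genes, and 1474 to 2031 when single experiments were left out. The 0 interaction calls against 1 month became 55 with DESeq2, 36 with no filter, 28 with precursors as comparison and 0 to 3 when single experiments were left out (Hcn2, Spock1 and A230001M10Rik without the second at 2 months). Those against 2 months became 53 with DESeq2, 17 with edgeR's filter, 443 with no filter, 299 with precursors and 0 to 606. The MOL share differed by -2.83 to 21.4 points between 6 to 8 months and 2 months when single experiments were left out. The recombined share differed by -1.03 points with 2 markers required and by 0.000343 points, in the other direction, after thinning. With a pseudocount of 1 CPM, 251 genes were at least 4-fold higher in MOLs and 1369 lower, and with 50 CPM 58 and 45. The cause of these changes was not tested unless stated. The late mature and myelin-forming differences kept their direction with other marker limits, after thinning and without single experiments. Without the most abundant gene of each list, an alternative chosen after seeing the data, the late mature difference was -0.0595 and the myelin-forming one -0.22, in the other direction. Depth limits the 1-month sum most, at 144473 UMIs.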

Other observations

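Immediate early genes, which cells switch on within minutes of a stimulus, differed between experiments rather than only between ages. Fos in MOLs stood at 96.9 CPM at 1 month, 41.5, 81.8 and 413 CPM at 2 months and 103, 806 and 1217 CPM at 6 to 8 months, so that the ages overlapped (edgeR, log2 difference 2.05 between 6 to 8 months and 2 months, adjusted p = 0.055). The summed list was at 2000 CPM at 1 month, 1352, 2134 and 2956 CPM at 2 months and 2038, 3500 and 4410 CPM at 6 to 8 months. In MOLs thinned to 1500 UMIs Fos was detected in 7.69% at 1 month, 3.95, 6.63 and 20.7% at 2 months and 5.49, 33.5 and 42.8% at 6 to 8 months. Jun stood at 221 CPM at 1 month, 161, 197 and 215 CPM at 2 months and 264, 370 and 500 CPM at 6 to 8 months (log2 difference 0.90, adjusted p = 0.0030). Of the 24 genes compared, 15 were lower in MOLs than in the other cells in all 7 experiments, a description without the share over all genes. Arc, which neurons induce with activity, was higher in all 7, at 49.3 ± 20.6 CPM (SD, n = 7) against 4.23 ± 2.3 CPM.

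Klk6, a protease that marks a subset of mature oligodendrocytes, stood at 0.401 to 15.7 CPM across experiments in dentate gyrus MOLs, and C4b, a complement gene, had 0 UMIs at 1 month and stood at 2.92, 4.27 and 5.34 CPM at 2 months and 29.5, 17.0 and 19.7 CPM at 6 to 8 months. Neither was detected in enough MOLs to be tested.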
